A study of Mus musculus with 2 samples.

Results

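The Unc13c and Gfra2 nuclei were 277 of the 4395 nuclei placed on the arcuate (ARC) side by their hashtags in a single-nucleus RNA sequencing (snRNA-seq) library of the mouse hypothalamus. The matrix as a whole held 11409 barcodes, of which 10170 passed the quality limits of over 800 and under 5000 genes, at most 12000 unique molecular identifiers (UMIs, counted RNA molecules) and at most 1% mitochondrial UMIs. A nucleus was placed on the ARC side where the UMIs of the ARC hashtag antibody reached 0.8 times those of the hashtag named PVH (4395 nuclei), and on the PVH side otherwise (5775 nuclei). The series describes ARC tissue only and its labels do not explain the hashtag named PVH, so the sides are named for the hashtags and not for a dissected region. The median ratio of ARC to PVH hashtag UMIs was 1.26 in the members, 1.24 in the other ARC-side nuclei and 0.446 in the PVH-side nuclei outside the gene rule. HTODemux, a hashtag classifier, called 227 of the 277 members ARC, 26 negative and 24 doublets. Membership then required at least 1 UMI of Unc13c and a UMI in at least 3 of 7 partner genes, which were Gm45680, Il1rapl2, Spats2l, Gfra2, Vwc2, Ano4 and Efnb2. The 277 nuclei made up 6.30% of the ARC side (exact 95% binomial interval 5.60 to 7.06%). Because these 8 genes chose the nuclei, their levels are a description, and the same holds for the genes that follow them.

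The nuclei came from micro-dissected ARC of adult wild type C57BL/6J males (10 to 12 weeks of age) that were pooled, and were sorted on the neuronal protein NeuN and captured with 10x Genomics chemistry. There was no treatment or genotype contrast, and no label ties a nucleus to a mouse, so the library is 1 sample. The comparison made here is therefore between groups of nuclei within that sample. It has no replicates and no test, and all intervals are 95% intervals that cover counting error only. The sort kept nuclear RNA of NeuN-positive nuclei, and levels are given as CPM, the summed UMIs of a gene in a group scaled to 1000000 UMIs of that group. The 277 nuclei held 1576566 UMIs, with a median of 4920 per nucleus (2455 to 11956), and the 4118 other ARC-side nuclei held 20809341, with a median of 4762.

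Unc13c encodes a brain member of the Munc13 family, the proteins that prime synaptic vesicles for release. Gfra2 encodes the receptor that binds neurturin and signals together with Ret, and Il1rapl2 belongs to a family of synaptic adhesion proteins related to interleukin receptors. Otp is a homeobox transcription factor needed for several neuroendocrine and arcuate cell types, and Sst encodes somatostatin, the peptide that restrains growth hormone release. In the arcuate nucleus, inhibitory neurons make GABA with the enzymes of Gad1 and Gad2 and load it into vesicles with the transporter of Slc32a1, whereas excitatory neurons use the glutamate transporter of Slc17a6.

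The rule genes described the group as follows. Unc13c (chromosome 9, 73479422 to 73968966, minus strand; mm10) reached 703 CPM (663 to 746) in the 277 nuclei and 51.9 CPM (48.9 to 55.1) in the other ARC-side nuclei. The count per member ran from 1 to 23 UMIs with a median of 2, and 89 members held a single UMI. Il1rapl2 (chromosome X, 137570608 to 138846946, plus strand) stood at 2225 against 465 CPM and was seen in 91.7% of the members. Gfra2 (chromosome 14, 70890120 to 70979838, plus strand) stood at 141 CPM (123 to 161) against 52.3 CPM (49.3 to 55.5), and 143 of 277 members (51.6%) held a Gfra2 UMI. Gfra2 thus gave the group its name but was absent from the counts of nearly as many members as it was present in. Spats2l, Ano4, Vwc2, Gm45680 and Efnb2 were between 2.73-fold (Efnb2) and 4.02-fold (Spats2l) higher than in the other ARC-side nuclei.

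As a rough guide to free RNA, 67 nuclei of 3 non-neuronal clusters were read in the same way. They had a median of 3031 UMIs, and 10.4% of them held a Unc13c UMI, against 10.2% of the other ARC-side nuclei. The 2 shares were alike, but the counts behind them were uneven. Of the 14 Unc13c UMIs in the non-neuronal nuclei, 13 lay in 1 cluster of 32 nuclei with oligodendrocyte markers. Of the 1081 in the other ARC-side nuclei, 568 lay in 62 nuclei with at least 5 each. For Gfra2 the non-neuronal share was 2.99%, against 51.6% of the members and 19.1% of the other ARC-side nuclei. After every nucleus was thinned to 1000 UMIs the 3 Gfra2 shares were 1.49%, 13.0% and 5.15%. Ano4 is the exception among the partner genes, with 502 CPM (416 to 600) in the non-neuronal nuclei and 266 CPM (241 to 292) in the members.

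The promoters of Unc13c and Sst are shown because one gene chose the nuclei and the other is the secreted peptide named among their markers. Each is the RefSeq window (GRCm38.p6) from 250 bases before to 50 bases after the annotated start, read on the strand of the gene, and capitals mark TGACGTCA, the cAMP response element.
Unc13c, chr9:73968988-73969287, minus strand: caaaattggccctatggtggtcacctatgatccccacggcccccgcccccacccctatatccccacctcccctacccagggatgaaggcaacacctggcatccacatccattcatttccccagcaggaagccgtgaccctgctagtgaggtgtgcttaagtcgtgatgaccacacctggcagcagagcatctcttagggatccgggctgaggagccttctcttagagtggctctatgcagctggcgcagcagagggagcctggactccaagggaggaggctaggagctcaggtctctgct
Sst, chr16:23890795-23891094, minus strand: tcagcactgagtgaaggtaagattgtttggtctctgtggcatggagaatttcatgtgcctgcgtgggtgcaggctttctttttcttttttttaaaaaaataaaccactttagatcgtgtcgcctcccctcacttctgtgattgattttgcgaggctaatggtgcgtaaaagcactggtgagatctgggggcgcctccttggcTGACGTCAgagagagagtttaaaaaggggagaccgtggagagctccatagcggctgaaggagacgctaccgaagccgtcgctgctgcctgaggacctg
The element, which reads the same on both strands, was found once in the Sst window, beginning 48 bases before the start. It was in 588 of 32851 mouse promoter windows of this length (1.79%) and in 0 of the 6 rule-gene windows that could be matched (Unc13c, Il1rapl2, Spats2l, Vwc2, Ano4 and Efnb2). A match is a description of letters and says nothing about binding in these nuclei.

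The label of the group, Unc13c and Gfra2 GABA neurons, was then checked against its other markers. Otp (chromosome 13, 94875602 to 94885130, plus strand) stood at 42.5 CPM (32.9 to 54.0) in the members and 23.2 CPM (21.2 to 25.4) in the other ARC-side nuclei, a ratio of 1.83. Otp UMIs were in 19.1% of the members, 9.64% of the other ARC-side nuclei and 1.49% of the non-neuronal nuclei. These shares were 5.42%, 2.43% and 0 after thinning, where 0 of 67 non-neuronal nuclei allows a share of up to 4.48%. Sst (chromosome 16, 23889573 to 23890958, minus strand) stood at 126 CPM (109 to 144) in the members and 89.4 CPM (85.4 to 93.6) in the rest of the ARC side. The non-neuronal nuclei, however, read 142 CPM (98.4 to 199) for Sst. Sst UMIs were in 47.3% of the members, 35.1% of the others and 41.8% of the non-neuronal nuclei, and in 10.8%, 8.14% and 17.9% after thinning. The Sst level over all 277 members was thus above that of the other ARC-side nuclei but not above that of the non-neuronal nuclei. Agrp, Npy and Pomc, peptides of other arcuate neurons, were also read in the non-neuronal nuclei, with Agrp UMIs in 49.8% of the members and 46.3% of the non-neuronal nuclei. Sst was enriched 1.5-fold or more in 1 of the non-neuronal clusters (20 nuclei). The part of free RNA in these levels was not tested.

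The GABA part of the name was not set apart from the rest of the ARC side. Slc32a1 stood at 39.3 CPM (30.2 to 50.4) in the members and 36.9 CPM (34.3 to 39.6) in the others, and at 12.5 CPM (2.59 to 36.6) in the non-neuronal nuclei. Gad1 stood at 60.9 against 64.0 CPM, and Gad2 at 100.2 against 128 CPM. Of the 6 measured genes for GABA synthesis and transport, 0 were 2-fold higher and 0 were 2-fold or more lower, next to 0.655% and 1.75% of the 11912 genes that could be compared. By interval, 0 of the 6 lay wholly above a ratio of 1 and 1 lay wholly below it. Slc17a6 was lower in the members, at 26.0 CPM (18.7 to 35.3) against 47.9 CPM (44.98 to 50.98). Against only the other ARC-side nuclei with a Slc32a1 UMI, its log2 ratio was -0.40 (-0.94 to 0.12). After thinning, against all other ARC-side nuclei, it was -0.97 (-2.30 to 0.10). Both intervals included a ratio of 1. The neuronal genes Snap25 and Rbfox3 differed by ratios of 1.23 and 1.06. Marker genes of other cell types were summed in lists of 5. The oligodendrocyte genes read 66.0 CPM in the members, 113 CPM in the other ARC-side nuclei and 3967 CPM in the non-neuronal nuclei, and the astrocyte genes 19.7, 34.9 and 1024 CPM. Tanycyte genes read 137 CPM in the members against 114 CPM in the others and 953 CPM in the non-neuronal nuclei. Microglial genes did not set the groups apart, at 114, 114 and 146 CPM, with C1qa and Tmem119 at 0 in the members. Nr5a1 and Fezf1, which define neurons of the neighbouring ventromedial hypothalamus, had 0 UMIs in the members, which allows up to 1.90 CPM each.

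Nuclei of the ARC side were next grouped by their whole expression, with the rule genes among the genes read. Of 17 clusters, cluster 4 with 360 nuclei held 183 of the 277 members (66.1%, 60.2 to 71.6%), and these were 50.8% of that cluster. Its leading genes were Unc13c, Gm4131, Tmem26, Il1rapl2, Pth2r, Gm45680, Cntn5, B020031H02Rik, Tacr1 and Cbln4. All 5 markers of the name were enriched in it. Unc13c, Gfra2 and Il1rapl2 are rule genes, so their enrichment was built in. Some markers were enriched elsewhere too. Gfra2 and Otp were so in cluster 1 (748 nuclei), which carried all 5 AGRP neuron markers. Otp was so in cluster 14, Il1rapl2 in clusters 10 and 13, Unc13c in cluster 2, and Sst and Il1rapl2 in the non-neuronal cluster 16. Another 43 members lay in cluster 2 (676 nuclei), which had Lef1, Runx1 and Gata2 among its leading genes and was the only other neuronal cluster with over 100 CPM of Unc13c. The remaining 51 members were spread over 12 clusters with 1 to 10 each, and the 3 non-neuronal clusters held 0. When the 8 rule genes were withheld from the clustering, 171 members still shared 1 cluster of 266 nuclei, and all 171 were among the 183. At finer resolutions of 1.2 and 2.0 the leading cluster held 183 and 184 members among 276 and 273 nuclei.

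**Figure D1:**
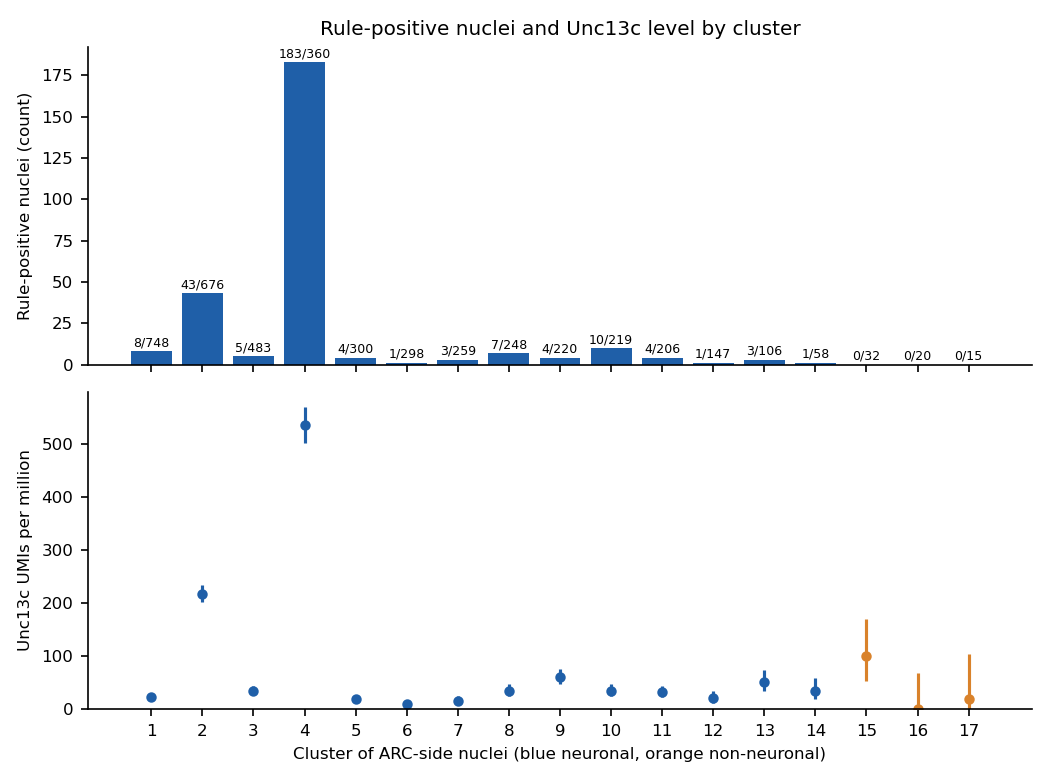
Upper bars give the number of members (the rule-positive Unc13c and Gfra2 nuclei, written over the total nuclei) in each of 17 clusters of ARC-side nuclei. Lower points give the Unc13c level of each whole cluster in CPM with 95% Poisson intervals. Cluster 4 stands highest in both, with 183 of 360 nuclei and 535 CPM, and cluster 2 follows with 43 of 676 nuclei and 217 CPM.

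The members thus fell into a part inside cluster 4 and a part outside it, and the 2 parts differed in most of the genes of the name. Sst stood at 178 CPM (152 to 208) in the 183 members inside and 51.7 CPM (35.8 to 72.2) in the 94 outside. Otp was at 53.3 CPM (39.5 to 70.5) inside and 27.4 CPM (16.2 to 43.3) outside. Slc17a6 was nearly missing inside, with 7 UMIs or 7.62 CPM (3.06 to 15.7), and stood at 51.7 CPM (35.8 to 72.2) outside, close to the level of the other ARC-side nuclei. Sim1, a transcription factor of paraventricular neurons, stood at 3.27 CPM (0.673 to 9.54) inside and 36.5 CPM (23.4 to 54.3) outside. Slc32a1 was alike in both, at 41.4 CPM (29.3 to 56.8) and 36.5 CPM (23.4 to 54.3). The clustering read all these genes, so the contrast describes the split and does not test it.

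The part outside cluster 4 also differed in technical measures. Its nuclei had a median of 6616.5 UMIs against 4569 inside, and a median of 1 Unc13c UMI against 4. HTODemux called 20 of the 94 (21.3%, 13.5 to 30.9%) doublets, against 4 of 183 (2.19%, 0.599 to 5.50%) inside and 229 of 4118 (5.56%) of the other ARC-side nuclei. Members with 1 Unc13c UMI lay in cluster 4 in 38.2% of cases (34 of 89), and those with 2 or more in 79.3% (149 of 188). By depth, the share in cluster 4 was 84.9% among the 93 shallowest members (up to 4458 UMIs), 73.9% among the next 92 and 39.1% among the 92 deepest (from 5950 UMIs). The part of depth, free RNA and doublets in the split was not tested.

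**Figure D2:**
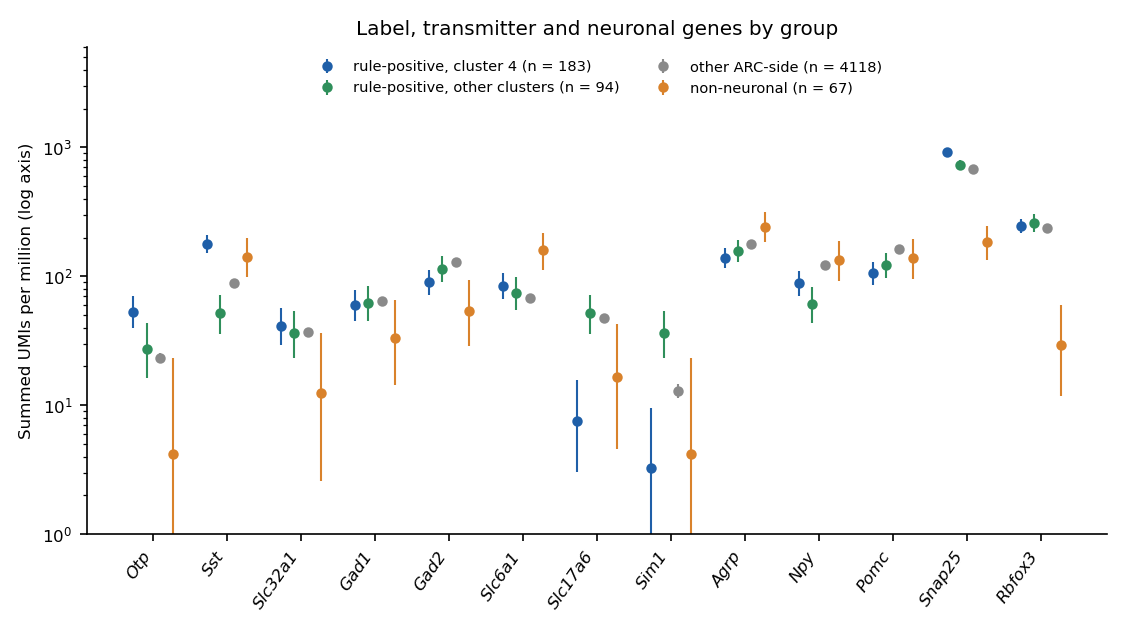
Points give CPM on a log axis, with 95% Poisson intervals, for the marker, transmitter and neuronal genes in 4 groups of ARC-side nuclei. Members inside cluster 4 are lowest for Slc17a6 (7.62 CPM) next to members outside it (51.7 CPM), while Slc32a1, Agrp and Pomc lie close together in the 2 parts. Sst of the non-neuronal nuclei (142 CPM) overlaps the members inside cluster 4 (178 CPM).

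The edge of the rule was read on both sides. Among nuclei with a Unc13c UMI, the 135 with exactly 3 partner genes had 2807 CPM of Cntn5 and 94.4 CPM of Sst, and 51.9% of them lay in cluster 4. The 159 with 2 partner genes, just outside the rule, had 1556 CPM of Cntn5 and 98.6 CPM of Sst, and 18.2% lay in cluster 4. The 77 members with 5 or more partner genes had 4983 CPM of Cntn5 and 166 CPM of Sst, and 87.0% lay in cluster 4. Another 564 ARC-side nuclei had 3 or more partner genes but no Unc13c UMI, and 20.9% of these lay in cluster 4. The clustering read the partner genes, and Cntn5 was among the leading genes of cluster 4. The rise of these shares and levels with the number of partner genes is therefore a description and does not test the rule.

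Cluster 4 also held 177 nuclei outside the rule, 145 of them without a Unc13c UMI. Compared with these, the 183 members were alike in Cntn5 (5372 against 5559 CPM), Otp (53.3 against 60.4 CPM), Sst (178 against 170 CPM), Tacr1 (81.6 against 74.6 CPM) and Crhr1 (42.4 against 52.7 CPM). They differed in Glp1r, the receptor for glucagon-like peptide, at 42.4 CPM (30.2 to 58.0) against 5.49 CPM (1.78 to 12.8). The leptin receptor gene Lepr went the other way, at 3.27 CPM (0.673 to 9.54) in the members and 28.5 CPM (18.6 to 41.8) in the non-members. Gm4131 stood at 111 against 35.1 CPM, and Gfra1, which encodes the receptor for the related ligand GDNF, at 20.7 against 49.4 CPM. Within cluster 4, built at a resolution of 0.55, the nuclei chosen for Unc13c were thus rich in Glp1r and poor in Lepr beside the others. At resolutions of 1.2 and 2.0 the leading cluster held 276 and 273 nuclei in place of 360, with 183 and 184 members. Fewer nuclei outside the rule shared it there, and the contrast was not repeated with them.

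Not every nucleus with much Unc13c belonged to the group. On the ARC side 155 nuclei held 5 or more Unc13c UMIs, and 93 of them (60.0%, 51.8 to 67.8%) were members. The other 62 held 568 Unc13c UMIs or 1733 CPM, and 39 of them lay in cluster 2 and 14 in cluster 4. These 62 nuclei had 88.5 CPM of Lef1, 159 CPM of Ebf1 and 42.7 CPM of Sim1, against 6.34, 22.8 and 17.1 CPM in the members. They had 15.3 CPM of Slc32a1 (5 UMIs) and 18.3 CPM of Otp (6 UMIs).

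Among all genes, 11912 had at least 10 UMIs expected in the members at the pooled rate of both groups. Of these, 78 were 2-fold or more higher in the members than in the other ARC-side nuclei (0.655% of the genes compared), the 8 rule genes among them, and 208 were 2-fold or more lower (1.75%). The median log2 ratio over all compared genes was -0.03. Against the 676 other ARC-side nuclei with a Slc32a1 UMI, 123 of 11850 genes (1.04%) were higher and 197 (1.66%) lower.

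**Figure D3:**
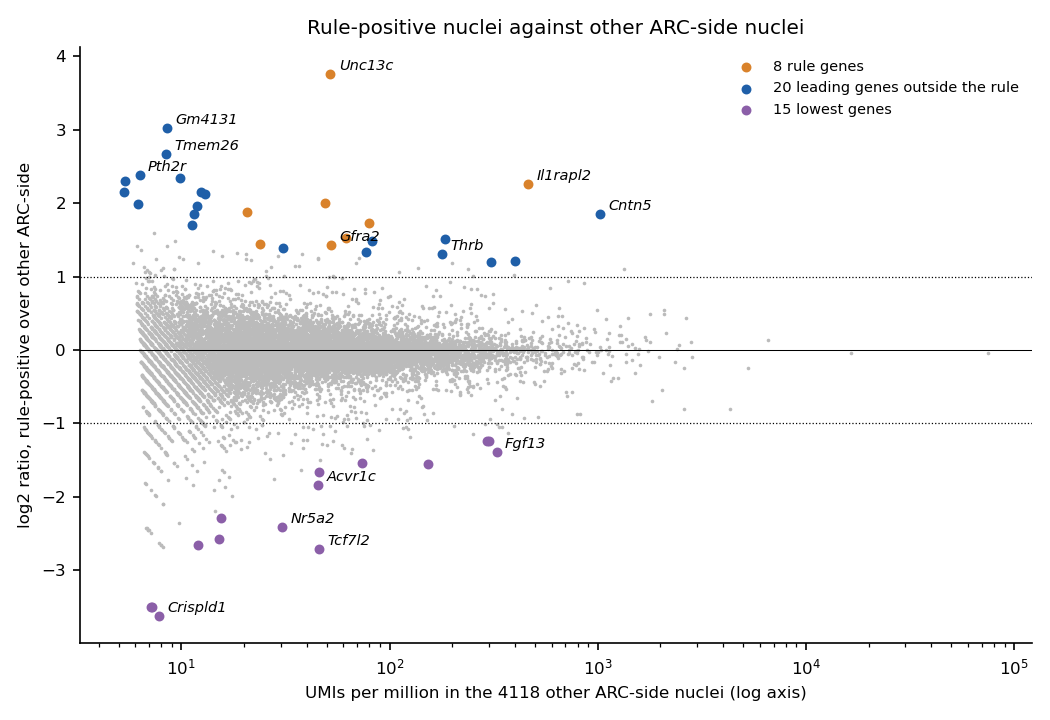
Each point is 1 of 11912 genes, placed by its CPM in the other ARC-side nuclei (log axis) and its log2 ratio in the members over those nuclei, with dotted lines at 2-fold. Rule genes (orange) are high by construction, Gm4131 (3.02) and Tmem26 (2.67) lead the genes outside the rule (blue), and Tcf7l2 (-2.71) and Nr5a2 (-2.41) are among the lowest (purple).

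Outside the rule, the genes with the clearest excess were named by the bound of the ratio nearest 1. Gm4131 stood at 69.1 CPM (56.8 to 83.4) in the members and 8.51 CPM (7.30 to 9.86) in the other ARC-side nuclei. Tmem26 stood at 53.9 against 8.46 CPM, with UMIs in 22.4% of the members, 3.93% of the others and 0 of 67 non-neuronal nuclei, which allows up to 4.48%. Cntn5, a contactin adhesion molecule, read 3696 CPM (3602 to 3792) against 1022 CPM (1008 to 1036). Cbln4, a secreted organizer of synapses, read 50.1 CPM (39.7 to 62.5) against 9.85 CPM (8.55 to 11.3).

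Several of the leading genes encode peptide receptors. Pth2r, a receptor of the parathyroid hormone family, read 33.0 CPM (24.6 to 43.3) against 6.30 CPM (5.26 to 7.47). Tacr1, the receptor for substance P, read 55.8 CPM (44.8 to 68.8) against 12.5 CPM (11.0 to 14.1). Glp1r (chromosome 17, 30901817 to 30940791, plus strand) read 26.6 CPM (19.2 to 36.0) against 5.38 CPM (4.43 to 6.48), on 42 UMIs in the members. Besides cluster 4, Glp1r was enriched 1.5-fold or more in the neuronal clusters 5, 8, 9, 10 and 14. Gm10503, an antisense gene that overlaps Glp1r on the minus strand, read 56.5 against 12.9 CPM, so the 2 genes of this locus were high together. Calcrl, which forms receptors for calcitonin gene-related peptide and adrenomedullin, read 24.7 CPM (17.6 to 33.8) against 6.20 CPM (5.18 to 7.37). Calcrl was also present in the non-neuronal nuclei, at 41.8 CPM (20.04 to 76.9), as was the protease gene Bace2, at 29.3 CPM (11.8 to 60.3) against 23.5 CPM in the members.

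The other leading genes were Map3k15, Colec12, Hs3st4, Dach1, Fam90a1b, Thrb, Enox2, Lhfpl3, Rhbdl3 and Gm32647, between 2.29-fold (Gm32647) and 3.89-fold (Map3k15) higher. Some also marked other neurons, with Colec12 among the leading genes of cluster 8 and Gm32647 among those of cluster 6. Thrb, a thyroid hormone receptor, had UMIs in 79.1% of the members, 39.6% of the other ARC-side nuclei and 44.8% of the non-neuronal nuclei. At the other end, Tcf7l2, a transcription factor of the Wnt pathway, read 6.98 against 45.7 CPM, and the nuclear receptor gene Nr5a2 read 5.71 against 30.4 CPM. Acvr1c, an activin receptor gene that also marks AGRP neurons, read 12.7 against 45.5 CPM, and Rxfp2, a relaxin family receptor gene, read 3.17 against 15.5 CPM. Fgf13, Galnt17 and Prune2 were lower at high counts, with log2 ratios of -1.40, -1.24 and -1.23. The remaining lowest genes were St18, Klf3, 9530026P05Rik, 9130024F11Rik, 4933413L06Rik, Crispld1, B230323A14Rik and Clic4, the last 3 with 1 UMI each in the members.

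The leading genes stood higher in the part of the group inside cluster 4 than in the part outside it. They were picked in all 277 members, 183 of which lay inside, and several of them lead cluster 4. Their excess inside is therefore a description. Over the other ARC-side nuclei, the 20 genes had a median log2 ratio of 2.40 in the members inside cluster 4 and all 20 were 2-fold or more higher. In the members outside it the median was 0.38 and 3 of the 20 were 2-fold or more higher (Colec12, Calcrl and Dach1). Glp1r read 42.4 CPM inside and 4.56 CPM (0.941 to 13.3) outside, the latter close to the 5.38 CPM of the other ARC-side nuclei. By sign alone, 17 of the 20 lay above a ratio of 1 outside cluster 4, 7 of them with their whole interval. Of the 15 lowest genes, all 15 were 2-fold or more lower inside cluster 4, and 10 were so outside it, where all 15 lay below a ratio of 1 and 13 with their whole interval.

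**Figure D4:**
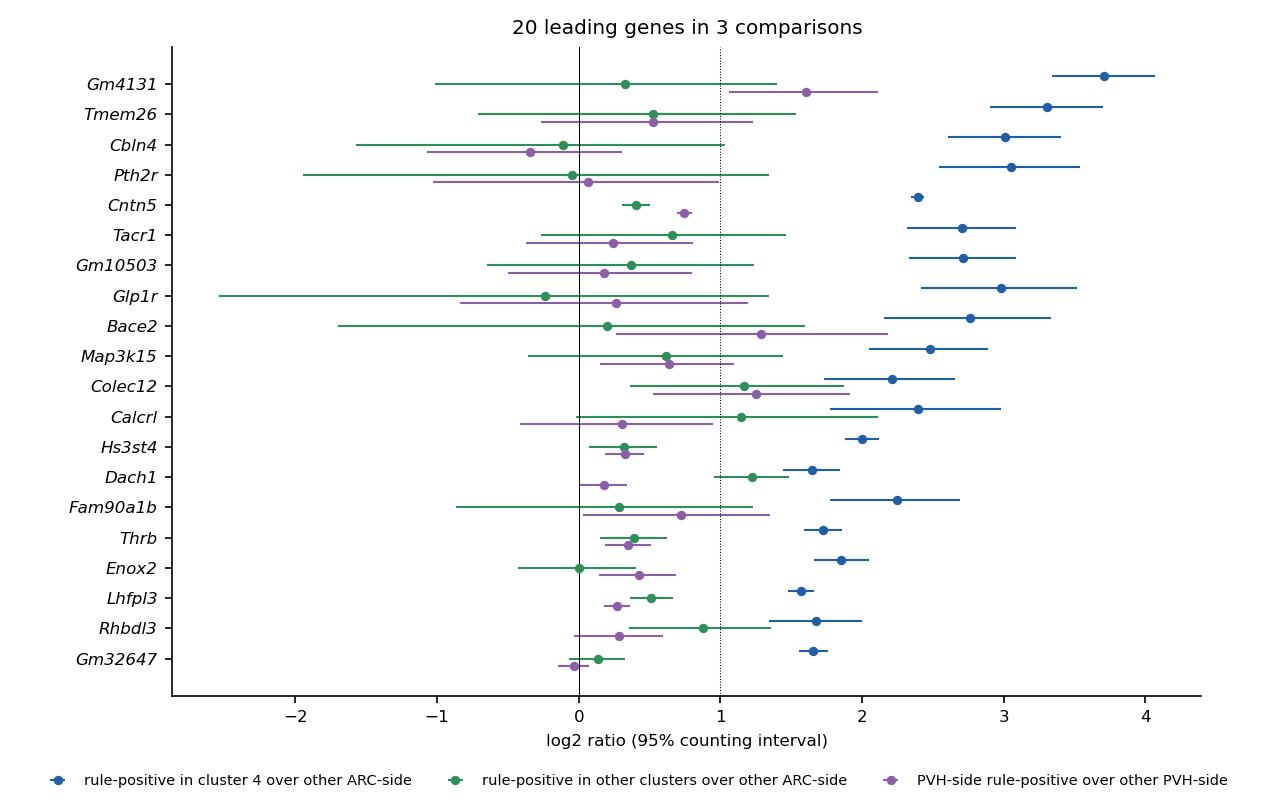
Points give log2 ratios with 95% counting intervals for the 20 leading genes outside the rule. Blue compares members inside cluster 4 with other ARC-side nuclei, green members outside cluster 4 with the same nuclei, and purple the PVH-side nuclei that met the gene rule with other PVH-side nuclei. Blue points run from 1.57 (Lhfpl3) to 3.71 (Gm4131), and 3 green and 3 purple points reach 1.

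Hormone, peptide and transmitter receptors differed in both directions. Of 38 compared, 6 were 2-fold or more higher (Glp1r, Tacr1, Calcrl, Thrb, Htr7 and Crhr1) and 6 were 2-fold or more lower (Oprk1, Lepr, Npy1r, Npy5r, Drd2 and Prlr), beside 0.655% and 1.75% of all genes compared. The list median was -0.05 on the log2 scale and that of all genes -0.03. The serotonin receptor gene Htr7 read 70.4 CPM (57.9 to 84.8) against 29.1 CPM (26.8 to 31.5), and Crhr1, a receptor for corticotropin-releasing hormone, 27.3 CPM (19.7 to 36.7) against 12.0 CPM (10.5 to 13.5). Lepr read 16.5 CPM (10.8 to 24.2) against 46.4 CPM (43.5 to 49.4), and 23 of its 26 UMIs came from members outside cluster 4. Npy1r and Npy5r, receptors for neuropeptide Y, read 6.34 and 24.1 CPM against 15.7 and 59.2 CPM. The prolactin receptor gene Prlr read 55.8 CPM in all members and 22.9 CPM in those inside cluster 4, against 116 CPM. The orexin receptor gene Hcrtr2 fell just short of 2-fold over all members, at 1.99-fold, and was 2.74-fold higher in the members inside cluster 4. The relaxin receptor gene Rxfp1 had a log2 ratio of 0.64 (0.33 to 0.96) over all members and 1.05 (0.69 to 1.39) inside cluster 4.

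**Figure D5:**
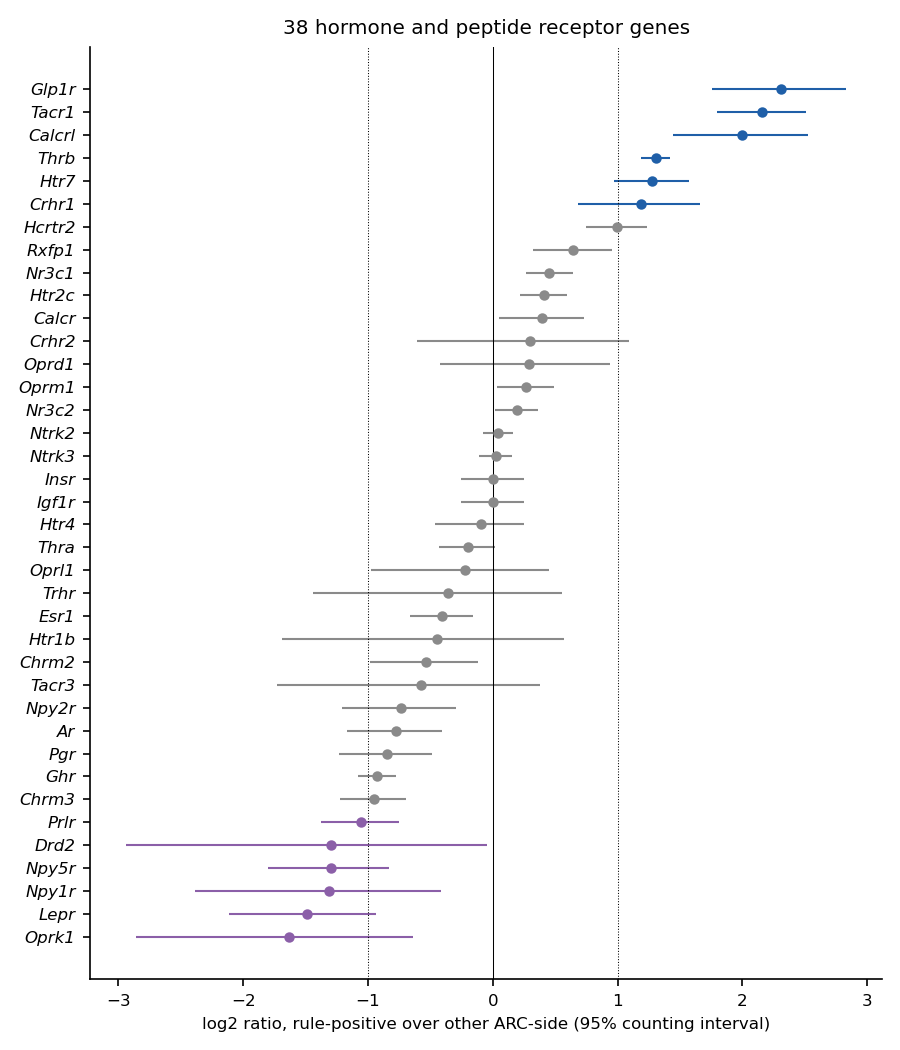
Points give the log2 ratio of the members over other ARC-side nuclei, with 95% counting intervals, for 38 hormone and peptide receptor genes in order of the ratio. Glp1r (2.31), Tacr1 (2.16) and Calcrl (2.00) stand highest, and Lepr (-1.49) and Oprk1 (-1.63) lowest, with dotted lines at 2-fold.

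Peptide genes themselves did not reach 2-fold higher over all members. Of 20 neuropeptide genes compared, 0 were 2-fold or more higher, and Nts alone was 2-fold or more lower, on 4 UMIs. Over all genes compared these shares were 0.655% and 1.75%. Sst had a log2 ratio of 0.997 (0.758 to 1.23) in the members inside cluster 4. In the members of the cluster built without the rule genes its ratio was 1.08 (0.835 to 1.31). These clusters were built on expression, so both values are a description. Of 5 somatostatin receptors 1, Sstr2, had enough counts to be compared, and it did not reach 2-fold over all members. It read 22.8 against 12.3 CPM (log2 ratio 0.89, 0.35 to 1.40), and Sstr1, which fell just under the count limit, read 18.4 against 5.38 CPM (1.77, 1.13 to 2.37). Sstr4 and Sstr5 had 1 UMI each in the members and Sstr3 had 0. Among 9 genes of peptide processing, Pcsk2, a prohormone convertase, was higher at 507 CPM (473 to 544) against 252 CPM (246 to 259).

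Relatives of the rule genes were mostly at the common level. The counts below stand next to 0.655% of all genes compared that were 2-fold or more higher and 1.75% that were lower. Unc13a and Unc13b, the other brain members of the Unc13c family, read 93.2 and 105 CPM in the members against 90.9 and 110 CPM. Of 34 genes of vesicle release, only Unc13c itself and Otof, a calcium sensor of release, were 2-fold or more higher, with Otof at 78.0 CPM (64.8 to 93.1) against 35.2 CPM (32.7 to 37.8). In the GDNF receptor family Gfra2 was high while Gfra1 read 57.7 CPM against 120 CPM, and Ret, the shared signalling partner, had 7 UMIs in the members (4.44 against 3.32 CPM). Of 7 anoctamins, 12 ephrins and Eph receptors and 9 genes of the BMP pathway, the rule genes Ano4, Efnb2 and Vwc2 were the only ones higher. Of 36 synaptic organizers, 5 were 2-fold or more higher, the rule gene Il1rapl2 among them, and 2 were 2-fold or more lower. Il1rapl1, the closest relative of Il1rapl2, read 2875 CPM (2792 to 2960) against 1332 CPM (1317 to 1348). Cbln4, Cntn5 and Slitrk3 were the others higher, and Slitrk2 and Cntnap5c were the lower ones.

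Of 37 transcription factors compared, 5 were 2-fold or more lower, St18, Dlx6os1, Lhx1 and Tcf7l2 among them, and Ebf1 alone was that much higher, while over all genes lower calls (1.75%) also outnumbered higher ones (0.655%). The Ebf1 counts lay outside cluster 4, with 36 UMIs there (54.7 CPM) and 0 in the 183 members inside it, which allows up to 3.27 CPM. Inside cluster 4, Otp was the 1 factor of 33 that was 2-fold or more higher (2.30-fold), and 14 were that much lower, Dlx1, Foxp2, Nfia, Nfib, Nfix, Zfhx3 and Sim1 among them. Ion channel and receptor subunit lists held few differences over all members. Of 34 potassium channels 2 were 2-fold or more lower, Kcna2 being one, as was Grik1 among 21 glutamate receptor subunits. None (0) of 19 GABA and glycine receptor subunits, 23 calcium and sodium channels and 20 cadherins passed 2-fold either way over all members. Inside cluster 4, 0 of these were 2-fold or more higher, but 7 of 20 cadherins (Cdh7, Cdh8, Cdh10, Cdh12, Cdh13, Pcdh9 and Pcdh15), 3 of 23 calcium and sodium channels (Cacna1h, Cacna2d1 and Cacna2d3) and 1 of 19 GABA and glycine receptor subunits (Glra3) were 2-fold or more lower. Grik1 read 29.4 CPM (27 UMIs) in the members inside cluster 4, 351 CPM in those outside and 329 CPM in the other ARC-side nuclei. Of the 10425 genes compared for the members inside cluster 4, 117 (1.12%) were higher and 404 (3.88%) lower.

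The same gene rule picked 299 of 5775 PVH-side nuclei (5.18%, 4.62 to 5.78%), which were not used to choose the group. Their Unc13c level was 499 CPM (468 to 531), but Il1rapl2 stood at 601 CPM (567 to 636) against 2225 CPM in the ARC-side members. Slc17a6 read 80.0 CPM (68.0 to 93.6) and Sim1 97.4 CPM (84.1 to 112), close to the 73.1 and 95.7 CPM of the other PVH-side nuclei. Glp1r read 5.10 CPM (2.44 to 9.38) and Otp 22.4 CPM (16.3 to 30.1). Over the other PVH-side nuclei the 20 leading genes had a median log2 ratio of 0.31, and 3 of them, Gm4131, Colec12 and Bace2, were 2-fold or more higher. By sign 18 of the 20 lay above a ratio of 1 there, 11 with their whole interval.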

How the data were processed

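Nuclear RNA of NeuN-sorted ARC nuclei was sequenced as 1 gene expression library with a hashtag library. The authors deposited raw UMI counts of 32285 genes and 2 hashtags in 11409 barcodes, not normalized, and no source used here states if intronic reads were counted. Per the submitters' processing notes, reads were aligned to mm10 with Cell Ranger 5.0 and analysed with Seurat 4, while the file header names Cell Ranger 4.0.0. No labels assign nuclei to clusters or mice.

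Counts were summed over the nuclei of a group in Python 3.11.15 (scipy 1.17.1) and scaled to CPM. Intervals were exact Poisson for CPM, exact Clopper-Pearson binomial for shares, and binomial conditional on the summed count for ratios. Genes with at least 10 expected UMIs in the members were compared and a ratio of 2 was called, with no p-value, since nuclei of 1 library are not replicates. The procedure was tested on simulated data. The simulated sums held counting error only, so they say nothing about spread between nuclei or about choosing nuclei by the rule. Shares were also read after thinning each nucleus to 1000 UMIs (all had at least that many on the ARC side).

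Clustering used scanpy 1.11.5 (scaled to 10000 UMIs, 2000 variable genes, 30 components, 20 neighbours, Leiden resolution 0.55). Doublets were not removed beyond the upper limits, and hashtag doublets were read from HTODemux (Seurat 5.3.0, R 4.3.3, quantile 0.8). A cluster was called non-neuronal from a low pan-neuronal level (median ratio under 0.5) together with at least 3 enriched markers of 1 glial, tanycyte or vascular type. A marker counted as enriched at 1.5-fold. The low neuronal and high glial levels of these clusters were therefore built in.

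The members and gene lists were chosen with earlier results of these data known. Genes named were the rule genes, the markers of the name, called members of the lists, and the 20 highest and 15 lowest genes outside the rule, ranked by the bound of the ratio nearest 1. The leading genes of clusters 2 and 4, and Gm4131, Gfra1, Htr7, Hcrtr2, Rxfp1 and Sstr1 in the added contrasts, were named after their values were seen. A few genes are not reported here. Gene positions are from GENCODE M21 (GRCm38, the assembly of mm10) and 300-base promoter windows from RefSeq. Alternatives are given in the closing section.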

Additional observations from a re-analysis of the deposited data

How the results depend on the processing

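The group itself was sensitive to its rule. It held 33 nuclei where ARC hashtag UMIs had to be 2 times those of PVH, 436 with 2 partner genes, 142 with 4, and 174 among nuclei of 4000 to 8000 UMIs. By cluster, alternatives added after the data were seen, it held 183 inside cluster 4, 94 outside it and 171 in the cluster built without the rule genes. The 78 higher and 208 lower genes became 40 and 131 with the hashtag ratio of 2, 42 and 61 with 30 expected UMIs, 568 and 1484 with 1, 369 and 701 at 1.5-fold, and 19 and 47 at 3-fold. Higher genes alone moved to 123 against nuclei with a Slc32a1 UMI and to 43 after thinning. Members inside cluster 4 gave 404 lower genes, those outside it 15 higher and 135 lower, and those in the cluster built without the rule genes 135 higher and 408 lower. Fewer nuclei or genes entered several of these settings, and otherwise the cause was not tested.

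Otp stayed above a ratio of 1 in all 13 alternatives run (log2 0.24 to 1.29), and so did Tacr1 (0.66 to 2.77) and Calcrl (1.14 to 2.54). Lepr stayed below it in all 13 (-4.27 to -0.41). These are point values, and some intervals included a ratio of 1. Outside cluster 4 this held for Otp (-0.53 to 0.91), Tacr1 (-0.27 to 1.46), Calcrl (-0.02 to 2.11) and Lepr (-1.07 to 0.19). With the hashtag ratio of 2 it held for Otp (-0.10 to 1.99), Calcrl (-0.57 to 3.83) and Lepr (-3.03 to 0.26), but not for Tacr1 (0.99 to 3.13). Sst and Slc17a6 each changed sign in 1 of 13, among members outside cluster 4, at -0.79 and 0.11, and Glp1r did so there at -0.24, on 3 UMIs. After thinning, the intervals of Glp1r (-0.62 to 2.92), Sst (-0.23 to 0.88) and Slc17a6 (-2.30 to 0.10) included a ratio of 1. With the hashtag ratio of 2, those of Glp1r (-0.17 to 3.53) and Slc17a6 (-3.13 to 0.16) did. Against nuclei with a Slc32a1 UMI, that of Slc17a6 (-0.94 to 0.12) did. Slc32a1 ran from -0.05 to 0.53 over 12; the setting that chose nuclei by Slc32a1 was not run for it. No paired analysis was possible because the library is 1 pooled sample with no replicate numbers. Depth limits genes near the count minimum, for example Glp1r with 42 UMIs in the members.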
